A study of Mus musculus with 2 samples.

Results

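Ncapd2, Anapc13, Cspp1 and Telo2 are 4 genes of the cell division and kinase maturation machinery among the 170 genes that the authors listed for RNA immunoprecipitation with BG4 in mouse forebrain. They were taken from the deposited table by gene symbol, and all 4 symbols were found, each on a single line. The table lists only genes that were higher with BG4, and the members were chosen by gene symbol with these BG4 and IgG values known. Their direction was fixed by that choice, and their values are given as a description with no test. BG4 is an antibody that recognises G-quadruplexes, stacked folds of guanine-rich nucleic acid. The BG4 library held the RNA eluted from a column carrying His-tagged BG4 and anti-6×His. In the control library, normal rabbit IgG, an antibody mixture raised against nothing in particular, stood in for BG4. Each antibody had 1 library from forebrain, the part of the brain with cortex and hippocampus, and the same kit for total RNA on the Ion Torrent platform was used for both, per the labels' protocols. The labels give no strain, age, sex or number of animals. Neither of the 2 libraries was an input library, which would give the level of each transcript in the tissue.

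Condensin is a ring-shaped complex of paired SMC ATPases that folds chromosomes into compact rods for mitosis, and Ncapd2 is a HEAT-repeat subunit of condensin I. The anaphase-promoting complex is a ubiquitin ligase that marks cyclins and securin for destruction so that chromatids separate, and in neurons, which no longer divide, it acts with its activator Fzr1 on axons and synapses. Anapc13 is a small subunit of it that helps the complex assemble. Cspp1 binds microtubules at centrosomes, spindle poles and the base of cilia, and mutations of its human counterpart cause Joubert syndrome, a disorder of cilia with a brain malformation. Telo2 works with Tti1 and Tti2 as a co-chaperone that lets newly made kinases of the PIKK family, such as mTOR, ATM and ATR, become stable.

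The sequences that follow are some of the guanine-rich stretches of the members' transcripts, shown because guanine runs are what a G-quadruplex is built from. They are examples picked by no stated rule and not the full set, whose counts are given further below. A motif here is 4 runs of guanines, each of 2 or more, separated by 1 to 7 bases of any kind, read on the transcript strand only and without overlap between motifs. The 4 runs are in capitals, T stands for U, and coordinates are of GRCm38, which is mm10. In Ncapd2, on the minus strand, the first sequence lies in the 5' UTR (chr6:125191503-125191525) and the second in coding exon 19 (chr6:125173857-125173873).
Ncapd2, 5' UTR: GGcGGGtgaGGGGtgtcgcGGGG
Ncapd2, exon 19: GGtgaGGGtGGGGctGG

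In Anapc13, on the plus strand, the first sequence lies in the 5' UTR of the transcript Anapc13-203 (chr9:102626368-102626388), inside the bases shared with the neighbouring gene Cep63. The second lies in its coding sequence (chr9:102629785-102629802), and the third in the transcript with a retained intron, Anapc13-205 (chr9:102628906-102628920).
Anapc13, 5' UTR: GGcccGGGtttccgaGGGtGG
Anapc13, coding sequence: GGaGGatGGacagtgaGG
Anapc13, retained intron transcript: GGGGatGGaGGtcGG

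In Cspp1, on the plus strand, the first sequence lies in coding exon 16 of Cspp1-201 (chr1:10095960-10095975) and the second in the retained intron transcript Cspp1-222 (chr1:10075064-10075090). In Telo2, on the minus strand, the first lies in the 5' UTR of Telo2-202 (chr17:25115469-25115487) and the second in the retained intron transcript Telo2-211 (chr17:25107238-25107256).
Cspp1, exon 16: GGGGGaaGGGcGGaGG
Cspp1, retained intron transcript: GGaagtagtGGGGGGagaGGttgaGGG
Telo2, 5' UTR: GGGcaGGcGGGaaacccGG
Telo2, retained intron transcript: GGGGaGGacaGGGGtcGGG

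Ncapd2 stood far above the other 3 members in the BG4 library. Its value was 0.112 FPKM with IgG and 99.6 FPKM with BG4, where FPKM is a fragment count corrected for the length of the transcript and the size of the library. The BG4 value ranked 8 of the 170 listed genes, whereas the IgG value ranked 100, so Ncapd2 was high with BG4 and ordinary with IgG. The log2 ratio of BG4 to IgG was 6.50 with 1 FPKM added to both values, rank 7. The fold without that pseudocount was 890.4, rank 4 of the 169 genes whose IgG value was not effectively 0. Read depth is unknown, so the number of reads behind the IgG value of 0.112 FPKM cannot be seen. In forebrain as a bulk tissue, fewer cells that make a transcript and less of it per cell cannot be told apart, for this gene or the next 3.

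Anapc13, Cspp1 and Telo2 lay at the low end of the listed genes in log2 ratio. Anapc13 had 0.126 FPKM with IgG and 3.91 FPKM with BG4, the latter rank 165 of 170 and close to the lowest BG4 value listed, 3.76 FPKM. Its log2 ratio was 2.13, rank 158. Cspp1 had 0.943 FPKM with IgG, rank 19 of 170 and the highest IgG value of the 4 members, and 6.43 FPKM with BG4, rank 109. Its log2 ratio was 1.93, rank 167.

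Telo2 had 0.669 FPKM with IgG, rank 32, and 5.25 FPKM with BG4, rank 130. Its log2 ratio was 1.90, rank 168, directly below that of Cspp1. The BG4 values of these 3 genes were within 1.64-fold of each other, and that of Ncapd2 was 15.5 times that of Cspp1. Across all 170 genes the median was 0.143 FPKM with IgG and 7.88 FPKM with BG4, so each of the 3 genes was below the median with BG4, and only Ncapd2 and Anapc13 were below it with IgG.

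The fold without a pseudocount split the members differently from the BG4 value. Anapc13, with the lowest BG4 value of the 4, had a fold of 31.0, rank 122 of 169, because its IgG value was also low. Cspp1 had a fold of 6.82, rank 168, and Telo2 a fold of 7.85, rank 165. Over the same 169 genes the median fold was 54.0 and the lowest 4.89. A further log2 ratio used values scaled to the median of the listed genes in the same library, with 1 added after scaling. It was 2.94 for Ncapd2, -0.33 for Anapc13, -2.06 for Cspp1 and -1.77 for Telo2. Such scaling centres the listed genes by construction, so the sign only places a member against the other listed genes. With 1 library per antibody there is no spread between replicates to set any of these differences against.

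**Figure D1:**
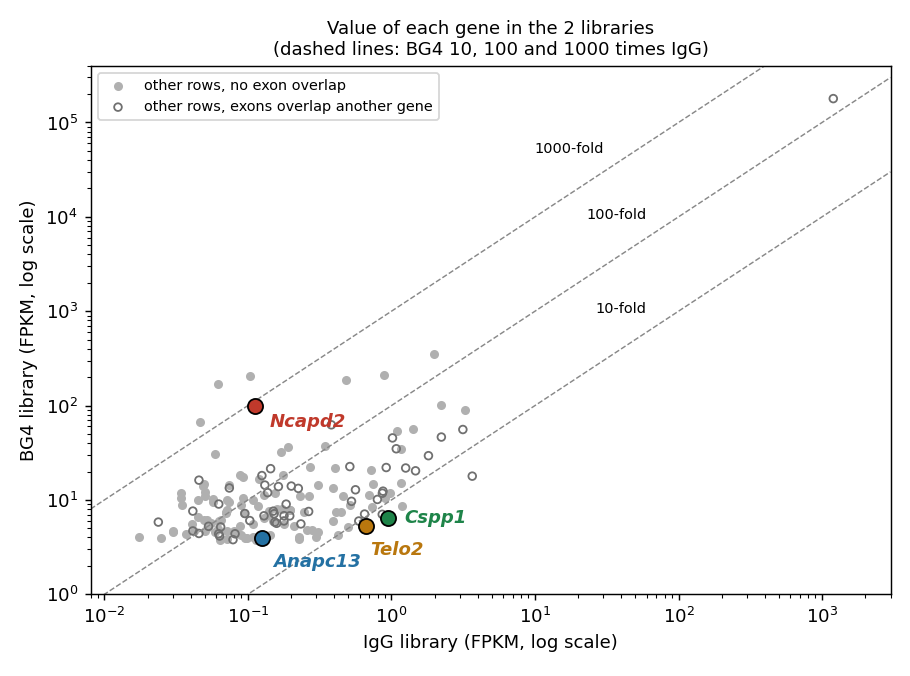
Value of each gene with IgG (horizontal axis, FPKM, log scale) and with BG4 (vertical axis, FPKM, log scale), 1 point per gene, with lines at BG4 values of 10, 100 and 1000 times IgG. The point of Ncapd2 (0.112 and 99.6 FPKM) lies just below the 1000-fold line and those of Cspp1 and Telo2 lie below the 10-fold line. Open points are genes whose exons overlap another gene, and the gene with an IgG value of effectively 0 is not drawn.

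All 4 members were above a 2-fold ratio with the pseudocount, as were 100% of the 170 genes, so this count says nothing about the members. Without a pseudocount, 2 of the 4 (Ncapd2 and Anapc13) were at 10-fold or more, against 96.4% of the 169 genes, and Cspp1 and Telo2 were among the few below. In the authors' deposited table, 1 of the 4 members had a q under 0.05, against 8.24% of the listed genes. These shares come from the contrast that chose the members, and nothing is read from them.

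The authors' deposited table gave Ncapd2 a q of 0.0179 (p = 0.0002), Cspp1 0.103 (p = 0.0048), Telo2 0.326 (p = 0.0459) and Anapc13 0.333 (p = 0.0482). With 1 library each, such a test sets library against library and says nothing of the spread within an antibody. The order by p differed from the order by fold: Cspp1, with the smallest fold of the members, ranked 44 of 170 by p, and Anapc13, with a larger fold, ranked 168.

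The listed genes with the most similar pair of values were found by distance in log2 FPKM over both libraries, without a pseudocount. For Ncapd2 they were Nup54, a nuclear pore protein, at a distance of 1.06, and Wdr44, a Rab11-binding protein, at 1.13. Both had higher BG4 values, 207 and 167 FPKM, so Ncapd2 had no close neighbour. For Anapc13 they were Dhx16, an RNA helicase of the spliceosome, at 0.102 (0.119 FPKM with IgG and 4.05 with BG4), and Tpm2, a tropomyosin, at 0.170 (0.113 and 3.76 FPKM).

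For Cspp1 they were Jade1, a subunit of a histone acetyltransferase complex, at 0.183 (0.862 FPKM with IgG and 7.03 with BG4), and Itga2b, an integrin of platelets, at 0.548 (1.18 and 8.71 FPKM). For Telo2 they were Pqlc1, a membrane protein, at 0.0933 (0.689 and 4.95 FPKM), and Slc4a2, an anion exchanger, at 0.257 (0.592 and 5.97 FPKM). In log2 ratio, Ncapd2 stood between the potassium channel Kcnn4 (6.81) and the translation regulator Bzw2 (6.03), and Anapc13 between Slc4a2 (2.131) and Jade1 (2.108). Cspp1 followed the coatomer subunit Copz1 (1.946), and Telo2 was followed by the histone demethylase Kdm1a (1.89).

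The lists compiled for the members' complexes held no other listed gene. Of 20 genes of condensin, cohesin and related SMC complexes, Ncapd2 was the only gene listed, and Smc2, Smc4, Ncaph, Ncapg and Ncapd3 were not. Of 21 genes of the anaphase-promoting complex and its regulators, Anapc13 was the only gene listed. The scaffold Anapc1 and the activators Cdc20 and Fzr1 were not.

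Of 27 genes of the centrosome, centriolar satellites and cilium, Cspp1 was the only gene listed, and its ciliary partners Rpgrip1l and Cep290 were not. Of 18 genes of the PIKK kinases and their maturation factors, Telo2 was the only gene listed, whereas its partners Tti1 and Tti2 and the kinases Mtor, Atm, Atr, Prkdc and Smg1 were not. Each list thus held its own member and 0 others, 4 of 86 genes in all. The 4 are the members around which the lists were compiled. The share of all annotated genes that were listed was not set beside this count, so nothing is read from the absences. These lists do not cover whole classes: Tubgcp6 of the gamma-tubulin complex (0.873 FPKM with IgG and 12.4 with BG4), Tctn3 of the ciliary transition zone (0.197 and 7.80 FPKM) and Spag5 of centrosomes and spindles (0.700 and 11.4 FPKM) were listed genes on none of them, named here after their values were seen. All 3 had higher BG4 values than Cspp1. The table is a selection, so absence from it gives no level. Of 33 markers of forebrain neurons, glia, endothelial cells and dividing cells, 0 were listed, Camk2a, Mki67 and Top2a among them, so the tissue label could not be checked with them and no marker level stands beside the members' values.

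The exons of 3 of the 4 members overlapped those of another gene, compared with 57 of the 170 listed genes (33.5%). Ncapd2 (ENSMUSG00000038252.9) had the deposited locus chr6:125168007-125191701 on the minus strand, equal to the annotated gene at both ends. Scarna10, a small RNA of Cajal bodies of the class that guides modification of spliceosomal RNAs, lies inside Ncapd2 on the same strand (chr6:125186359-125186683). They shared 237 exon bases, 72.9% of Scarna10 and 3.78% of all exon bases of Ncapd2.

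All 237 bases lay in 1 of the 13 annotated Ncapd2 transcripts, the retained intron transcript Ncapd2-203 of 682 bases, and made up 34.8% of it. The protein-coding Ncapd2-201 shared none. A second annotated gene, Gm28967, covers nearly the same place (chr6:125186361-125186641, 235 shared bases). Overlap on the same strand was found in 13 of the 170 listed genes (7.65%), and reads from the shared bases cannot be told apart even with strand. Neither Scarna10 nor Gm28967 was listed in its own right. The part of these shared bases in the 99.6 FPKM of Ncapd2 was not tested.

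Scarna10 itself holds 2 motifs of the kind shown above, both within the bases it shares with Ncapd2 (chr6:125186473-125186493 and chr6:125186418-125186443, minus strand), shown because they belong to both genes.
Scarna10, first: GGGaGGaattgtGGtaactGG
Scarna10, second: GGtgccaGGGtcagtGGtctcaaaGG

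Of the 170 listed genes, 5 shared 100 or more exon bases with a small RNA gene on either strand, and those other than Ncapd2 are named here after their values were seen. Ccdc107, which overlaps Rmrp on the opposite strand, had 179132 FPKM with BG4 and 1198 FPKM with IgG, the highest value listed in each library, and a fold of 149.5 without a pseudocount, against 890.4 for Ncapd2. Stx5a (5.99 FPKM with BG4, overlapping Mir6992 on the same strand) was below the median of 7.88 FPKM. So were Slc4a2 (5.97 FPKM, overlapping Gm22333) and Timm10b (4.26 FPKM, overlapping Gm22504), both with the small RNA on the opposite strand. With BG4, Ncapd2 and Ccdc107 were among the 8 highest of all listed genes and the other 3 were not. With IgG, Ncapd2 was below the median. Whether the overlap bears on any of these values was not tested.

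Anapc13 (ENSMUSG00000035048.9) and Cspp1 (ENSMUSG00000056763.12) had deposited loci that began well before the annotated gene. That of Anapc13 was chr9:102584598-102634425, whereas the gene is annotated from 102626296 on the plus strand. The extra 41698 bases, 83.7% of the locus, cover Cep63, a centrosome protein needed for centriole duplication, which is annotated on the minus strand from 102584588 to 102626534. The exons of Anapc13 and Cep63 shared 239 bases at their overlapping starts, in 2 of the 5 Anapc13 transcripts, with 211 of the 727 bases of Anapc13-203 among them.

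The deposited locus of Cspp1 was chr1:10024601-10136768, against an annotated start of 10037987 on the plus strand. Its start equalled that of Cops5, the catalytic subunit of the COP9 signalosome, annotated on the minus strand from 10024601 to 10038168. Here too the genes run away from each other, and they shared 182 exon bases at their starts, in 2 of the 27 Cspp1 transcripts. Neither Cep63 nor Cops5 was listed in its own right. Strand handling in counting is not stated, and without strand, reads from these shared bases cannot be assigned to either gene.

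Telo2 (ENSMUSG00000024170.11) had the locus chr17:25099570-25115967 on the minus strand, equal to the annotation, and shared no exon base with any gene. Its nearest neighbour, the cilium transport gene Ift140, ended 74 bases away on the plus strand. Telo2 was thus the member without exon overlap, and its BG4 value of 5.25 FPKM lay between those of Anapc13 and Cspp1. Loci equal to the annotation at both ends were found for 106 of the 170 listed genes, Ncapd2 and Telo2 among them. The median BG4 value was 9.02 FPKM in the 57 genes with exon overlap and 7.84 FPKM in the 113 without, and Anapc13 and Cspp1 were below both.

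**Figure D2:**
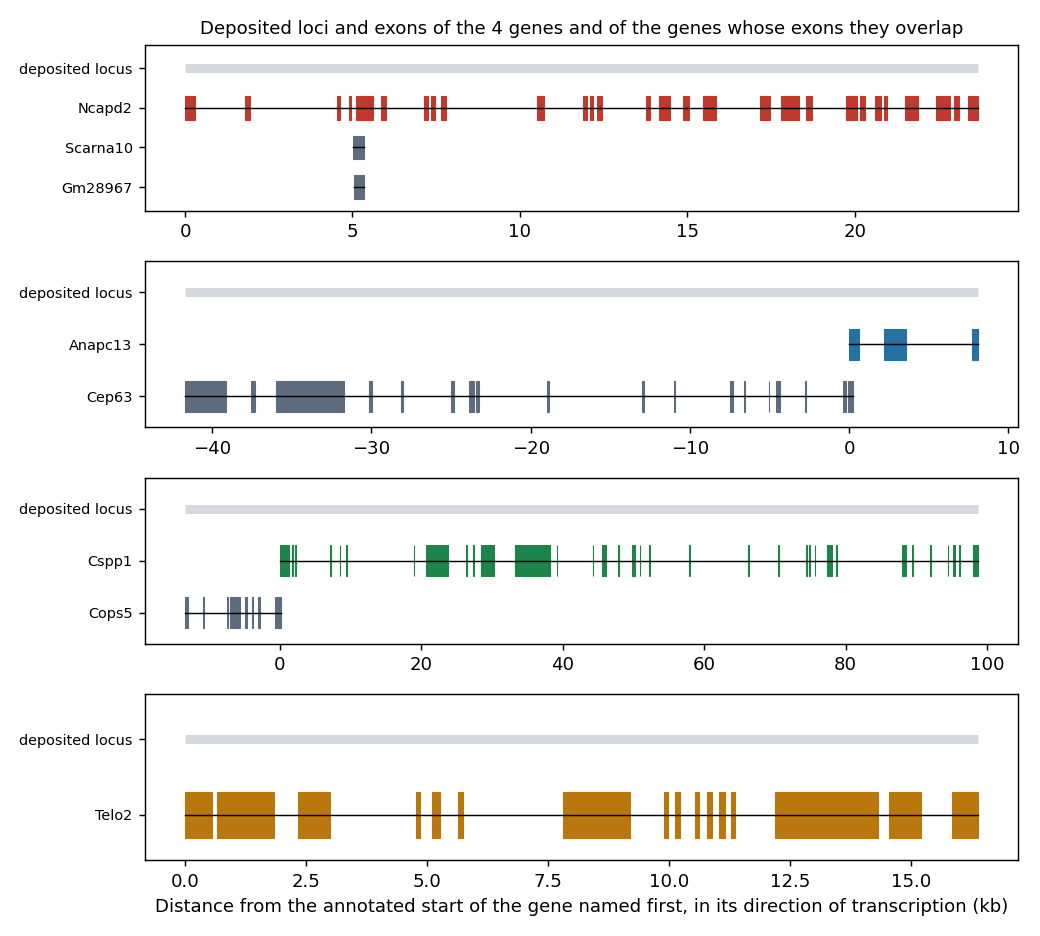
Deposited locus (grey bar) and merged annotated exons (boxes) of the 4 genes and of each gene whose exons they overlap, against the distance in kilobases from the annotated start of the member in its own direction of transcription. The loci of Anapc13 and Cspp1 reach 41698 and 13386 bases before the start, over Cep63 and Cops5, whereas those of Ncapd2 and Telo2 end with the gene.

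None of the members had a motif with 4 runs of 3 or more guanines, a common definition of a G-quadruplex sequence, in any of their 56 annotated transcripts. Of the 170 listed genes, 32 (18.8%) had at least 1 in their longest transcript and 56 (32.9%) in any transcript. With loops of up to 12 bases the members still had 0 in their longest transcripts. This search reads letters only: no match says nothing about whether BG4 bound the RNA.

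With runs of 2 or more guanines, all 4 members had motifs, as did 167 of the 170 listed genes (98.2%), so having such a motif did not set the members apart. Telo2 had 19 in its longest transcript of 4644 bases, 4.09 per kilobase, rank 33 of 170. Ncapd2 had 15 in 4629 bases, 3.24 per kilobase, rank 57, with 1 in the 5' UTR and 14 in the coding sequence. Both were above the median of 2.46 per kilobase.

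Anapc13 had 2 in 1216 bases, 1.64 per kilobase, rank 123, and Cspp1 had 2 in 5009 bases, 0.399 per kilobase, rank 165. Ncapd2 and Telo2, both above the median in motif density, were 19.0-fold apart in BG4 value, 99.6 against 5.25 FPKM. Whether motif density bears on the BG4 value was not tested. The longest transcript was a retained intron transcript for 3 of the 4 members, Anapc13, Cspp1 and Telo2, and for 32 of the 170 listed genes (18.8%). Whether these unspliced forms were present in the libraries cannot be seen from values per gene.

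In the longest protein-coding transcript, a choice made after the values were seen, the 4 members were closer together. Anapc13-203 had 3 motifs in 727 bases, 4.13 per kilobase, of which 2 lay in the 5' UTR. Cspp1-201 had 7 in 4355 bases, 1.61 per kilobase, all in the coding sequence, and 3 of these lay side by side in exon 19. Telo2-202 had 15 in 3530 bases, 4.25 per kilobase, with 3 in the 5' UTR and 12 in the coding sequence. The median was 2.66 per kilobase over the 164 listed genes with such a transcript, so Cspp1 was the member below it.

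**Figure D3:**
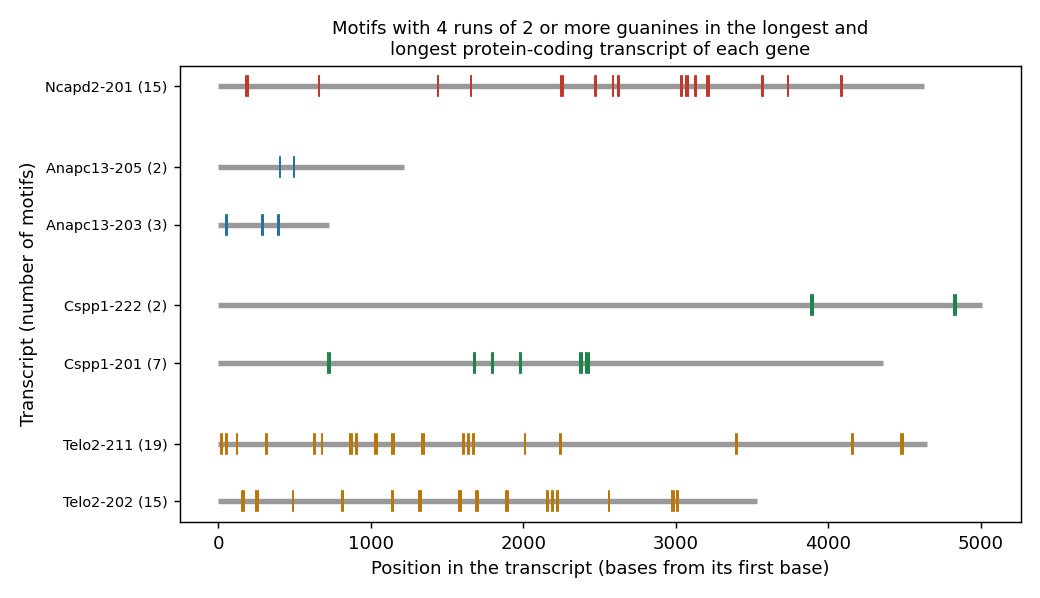
Position of each motif with 4 runs of 2 or more guanines (coloured marks) along the longest and the longest protein-coding transcript of each gene (grey lines, in bases), with the number of motifs in brackets. For Ncapd2 both are the same transcript, whose 15 motifs are spread along its length, whereas the 7 motifs of Cspp1-201 lie in its first part and middle.

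The G4Hunter score measures how guanine-rich and how cytosine-poor a stretch is, since each guanine counts as the length of its run, up to 4, and each cytosine as the same below 0. The highest mean score in a window of 25 bases was 2.12 in Ncapd2, rank 26 of 170, and 1.76 in both Cspp1 and Telo2, rank 54. It was 1.28 in Anapc13, rank 135, and the median was 1.64. In the longest protein-coding transcript, a choice made after the values were seen, it was 1.92 in Telo2, 1.52 in Cspp1 and 0.88 in Anapc13. The median there was also 1.64, so Cspp1 was below it. The windows are shown because they are the most guanine-rich stretch of each longest transcript, with runs of 2 or more guanines in capitals. That of Ncapd2 lies in coding exon 23 (chr6:125171896-125171920), and those of Anapc13 (chr9:102628905-102628929), Cspp1 (chr1:10075072-10075096) and Telo2 (chr17:25107823-25107847) in the retained intron transcripts.
Ncapd2, window: gaagaactGGGGctGGtGGGGGGGG
Anapc13, window: tGGGGatGGaGGtcGGttGGcagtg
Cspp1, window: tGGGGGGagaGGttgaGGGcctGGG
Telo2, window: atGGGattGGattctgcGGGGGGGG

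The windows of Ncapd2 and Telo2 both end in an unbroken run of 8 guanines, which the motif with runs of 3 or more does not count without further runs beside it. In GC content of the longest transcript, Ncapd2 (54.0%, rank 55 of 170) and Telo2 (53.4%, rank 62) were above the median of 51.1%. Anapc13 (47.5%, rank 121) was below it, and Cspp1 had 37.5%, rank 169. In the longest protein-coding transcript, where the median was 51.9%, Cspp1 had 44.1% GC, Anapc13 had 56.5% and so was above the median, and Telo2 had 58.0%. In number of annotated transcripts Cspp1 ranked 3 of 170 with 27, against 13 for Ncapd2, 11 for Telo2, 5 for Anapc13 and a median of 9.

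**Figure D4:**
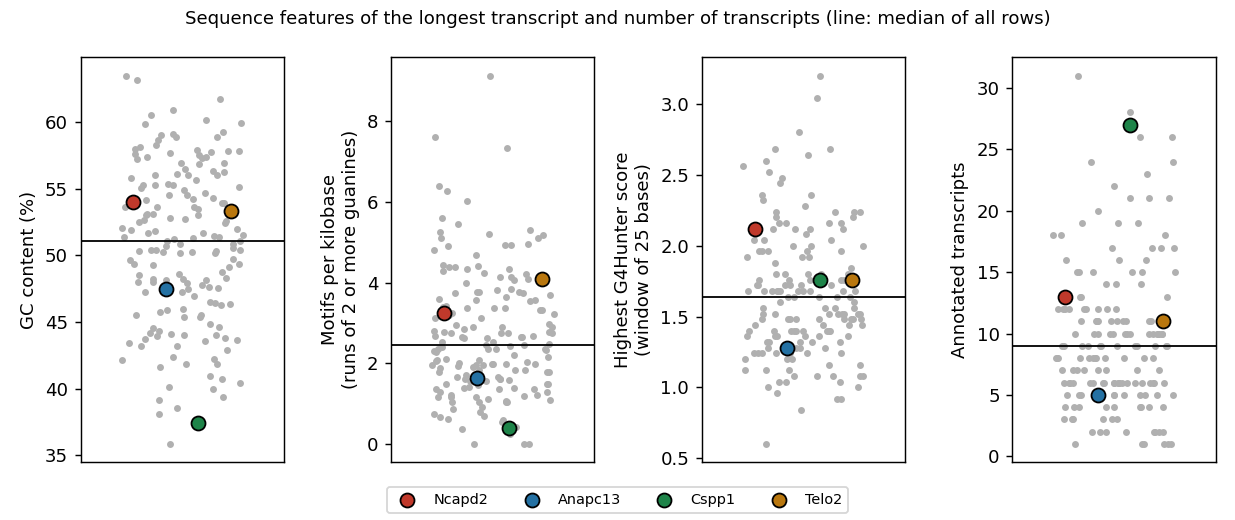
GC content, motifs per kilobase with runs of 2 or more guanines, highest G4Hunter score of the longest transcript, and number of annotated transcripts, for the 4 genes (coloured points) and the other listed genes (grey points, spread sideways for legibility), with the median of all 170 genes as a line. Ncapd2 and Telo2 lie above the median in each panel, Anapc13 below it in each, and Cspp1 is near the bottom in GC content and motif density and near the top in transcripts.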

How the data were processed

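RNA bound by BG4 or by IgG from mouse forebrain was sequenced, with 1 library each, grouped by the antibody label. Per the submitters' processing notes, the authors used Cufflinks and mm10. No version, aligner, annotation or strand setting is named there. The deposited values were taken to be FPKM from the Cuffdiff-like layout, since the header states no unit. The deposited log2 columns equal the log2 of the values within 0.001 for all 170 genes. The deposited p-value and q-value compare the 2 libraries, per the file headers. Read depth is unknown, so no counting interval was computed.

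The log2 ratio was taken with a pseudocount of 1 FPKM, which understates differences of low genes. Ranks run from the highest value, and for p from the lowest. All 170 identifiers matched GENCODE M21 (GRCm38) without their version, and 1 was added to deposited starts. Exon overlap counts bases of merged exons. Motif, score and overlap functions were tested on simulated sequences. The named genes are the 4 members, the genes they overlap, the 2 nearest in both values, those directly above and below in log2 ratio, and any on 4 pathway lists. Tubgcp6, Tctn3, Spag5, Ccdc107, Stx5a and Timm10b, the small RNAs these overlap, and the nearest gene to Telo2, Ift140, were named outside this rule, after their values were seen or, for genes with no value, from the annotation. Another marker gene is not reported here. Members, lists and rules were chosen with earlier results of these data known. Python 3.11.15, pandas 2.3.3, numpy 2.4.6 and matplotlib 3.10.9 were used. Alternatives were the pseudocount, library scaling, a filter on low values, strand, loop length, transcript and window.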

Additional observations from a re-analysis of the deposited data

How the results depend on the processing

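No paired analysis was possible because each antibody had 1 library only. With no replicates, a value counts as moved past 1.5-fold, which for a log2 ratio is taken on the ratio itself. Of 64 alternative values, 37 did not move, 24 moved and 3 changed sign. With each library divided by its own median before 1 was added, which centres the listed genes by construction, the log2 ratio became 2.94 for Ncapd2, -0.33 for Anapc13, -2.06 for Cspp1 and -1.77 for Telo2. Without a pseudocount it was 9.80 for Ncapd2, rank 4, 4.95 for Anapc13, 2.77 for Cspp1 and 2.97 for Telo2. With 0.1 FPKM it was 8.88 for Ncapd2, rank 3, 4.15 for Anapc13, 2.65 for Cspp1 and 2.80 for Telo2. At a given BG4 value, the lower the IgG value, the more a pseudocount lowers the ratio, by construction. On the same strand only, shared exon bases were 0 for Anapc13 and 0 for Cspp1. Requiring 10 FPKM with BG4 left 70 genes and 1 member above 2-fold, and 2 of 4 members reached 4-fold, against 164 of the 170 listed genes. With loops to 12 bases, motifs with runs of 2 or more guanines numbered 6 in Anapc13, 6 in Cspp1 and 32 in Telo2. Cspp1 had 7 over all transcripts and also 7 in the longest protein-coding transcript, a setting added once the values had been seen. In windows of 50 bases the highest G4Hunter score was 1.30 for Ncapd2, 0.84 for Anapc13, 1.10 for Cspp1 and 1.36 for Telo2. Telo2 was then the highest of the 4 members. In the shorter main window Ncapd2 was the highest, with 2.12 against 1.76 for Telo2. A longer window averages over more bases by construction. Motifs in introns were not run, for lack of a genome sequence here. Unknown depth limits every IgG value under 1 FPKM.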
